A study of Mus musculus with 6 samples.

Results

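The genes described here are 29 genes of cholesterol synthesis, uptake and efflux, out of 24061 genes in a table of RNA sequencing counts. They were chosen by name, with earlier results of these data known, so the counts below describe this choice of genes; all 29 were found under their current symbol and passed the filter on low counts. They comprise 18 enzymes of the synthesis pathway, 5 genes of the sterol-sensing machinery, a sterol transfer protein, 2 liver X receptors and 3 targets of those receptors. The libraries were made from total RNA of fibroblasts from the lungs of mice with fibrosis that carry a TGF-alpha transgene, kept in culture and called resident fibroblasts by the titles. Cells of 3 libraries, numbered 4 to 6, had received an siRNA against Wt1, a zinc finger transcription factor, and cells of the other 3, numbered 1 to 3, a control siRNA; every library therefore carries the transgene, and no library comes from a lung without it. The labels give neither the age of the mice, nor the promoter that drives the transgene, nor the time after transfection, nor the sequences of the duplexes. Nor do they state that the 3 libraries per group are separate cultures or mice, and the p-values below reflect the spread among these libraries, part of which may be technical.

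Cells make cholesterol from acetyl-CoA through mevalonate, squalene and lanosterol, and a last series of steps trims lanosterol to cholesterol. When the membrane of the endoplasmic reticulum is poor in sterol, SCAP carries the transcription factors SREBP-1 and SREBP-2 to the Golgi, where they are cut and released to raise the synthesis genes; INSIG proteins hold SCAP back when sterol is plentiful. Oxysterols activate the liver X receptors, which raise genes that export cholesterol and lower its uptake. In lung fibroblasts, as in other cells, this supply serves membranes and the lipid rafts and caveolae in which growth factor receptors signal.

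Promoter sequences were searched for motifs that these genes may share. RefSeq (GRCm38.p6) promoters, each running from 250 bases before a transcription start to 50 bases after it, were at hand for 24 of the 29 members, 15 of them enzymes; Abcg1, Fdft1, Fdps, Sqle and Stard4 are named only. Where a gene has several annotated starts, as Dhcr7 and Insig2 do with 3 each, a match in any of its promoters counts, for members and for other genes alike. A sterol regulatory element, the SREBP site searched as TCACNCCAC on both strands, was found in the promoter of Hmgcs1 alone (1 of 24 members, and 1.37% of the 11080 tested genes with a promoter). Sites that vary from these letters are not counted, so the other promoters may still hold such a site. The CCAAT box is bound by NF-Y, a partner of SREBP. It was found in 14 of the 15 enzymes (93.3%), in 5 of the 9 other members and in 43.1% of the tested genes. Within 100 bases before a start it was present in 13 of the 15 enzymes, all but Acat2 and Pmvk, and in 26.6% of the tested genes. The Hmgcs1 promoter is shown whole because it holds both motifs, the sterol element 137 bases before the start and 4 CCAAT boxes around it (chr13:119690101-119690400, plus strand; capitals mark these matches, and a box on the other strand reads ATTGG):
Hmgcs1 promoter: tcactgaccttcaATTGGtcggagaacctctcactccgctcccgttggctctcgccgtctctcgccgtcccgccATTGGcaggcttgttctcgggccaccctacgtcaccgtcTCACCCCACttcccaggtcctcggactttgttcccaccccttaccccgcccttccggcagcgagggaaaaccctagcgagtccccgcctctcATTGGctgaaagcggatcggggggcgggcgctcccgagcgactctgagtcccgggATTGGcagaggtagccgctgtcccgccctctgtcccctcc

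The members whose transcripts differed between the groups did so in both directions, and the next excerpts let their promoters be compared on the CCAAT box nearest to a start (capitals). They lie at chr1:169969198-169969232 on the minus strand for Hsd17b7, chr7:143830150-143830184 on the plus strand for Dhcr7, chr1:121332599-121332633 on the minus strand for Insig2 and chr5:28071181-28071215 on the plus strand for Insig1.
Hsd17b7, 12 bases before the start: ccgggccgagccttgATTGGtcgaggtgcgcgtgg
Dhcr7, 49 bases before the start: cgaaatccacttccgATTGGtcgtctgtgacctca
Insig2, 29 bases before the start: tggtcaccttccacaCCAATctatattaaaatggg
Insig1, 216 bases before the start: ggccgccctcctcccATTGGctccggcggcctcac
For Dhcr7 and Insig2 the box was in 1 of the 3 promoters. It was present in genes that were higher (Dhcr7, Insig1) and in genes that were lower (Hsd17b7, Insig2) after Wt1 siRNA. An E-box, CACGTG, which SREBP-1 and USF can bind, was found in 6 of 24 members (Abca1, Dhcr7, Hsd17b7, Insig1, Sc5d and Scap) and in 11.4% of the tested genes. It is shown for the pair in which it stands 143 and 101 bases before the start and in which the transcripts went opposite ways (chr1:169969328-169969363 on the minus strand and chr5:28071296-28071331 on the plus strand).
Hsd17b7 E-box: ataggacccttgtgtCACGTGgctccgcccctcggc
Insig1 E-box: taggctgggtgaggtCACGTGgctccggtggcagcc

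A site of the kind that WT1 and EGR proteins bind, searched as GCGTGGGNG on both strands, was found in 1 of the 24 members, Dhcr7, and in 3.73% of the tested genes. Dhcr7 has 3 promoters in the table, whose starts lie up to 7047 bases apart, and 1 of the 3, the furthest downstream, holds it, in a pair of neighbouring matches, the first 191 and the next 180 bases before that start, the first overlapping a GGGCGG (Sp1) match (chr7:143830008-143830057, plus strand; capitals mark the matches).
Dhcr7 pair: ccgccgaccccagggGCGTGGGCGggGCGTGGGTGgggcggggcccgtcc
The Sp1 site GGGCGG was found in 14 of the 15 enzymes and 7 of the 9 other members, against 67.3% of the tested genes. The liver X receptor element was searched on both strands as an exact direct repeat of AGGTCA with a spacer of 4 bases. It was found in 0 of the 24 members and 0 of the tested genes. A pattern that matches no promoter cannot set the members apart, and variants of the repeat were not searched. These matches describe letters in a short window. They show no binding, and a promoter without a match may hold a variant of the site or be bound elsewhere.

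Wt1 was measured first, as the check of the labels. In counts per 1e6 library counts (CPM, with TMM scaling) Wt1 had 11.4, 8.63 and 7.92 after Wt1 siRNA, against 48.8, 55.7 and 51.5 after control siRNA (log2 fold change -2.48 ± 0.16 SE, adjusted p = 5.98e-06). Total counts were 26.1 to 32.1 (in units of 1e6), and 14190 genes were tested. The cultures expressed fibroblast markers at a summed 35654 to 43627 CPM after Wt1 siRNA and 22942 to 32728 CPM after control siRNA; 6 of these 10 markers were higher and 2 lower. Markers of other lung cells summed far lower. Of 12 macrophage markers 6 were tested and 1, Cd14, was lower (summed 34.5 to 38.9 against 42.0 to 51.7 CPM, with Adgre1 at 0 in all 3 controls). Of 10 epithelial markers 6 were tested, 1 higher and 1 lower (76.2 to 88.6 against 59.9 to 82.5 CPM, with Scgb1a1 at 0 throughout). The higher one, Krt19, had a mean of 39.0 CPM after Wt1 siRNA and 17.9 CPM after control siRNA. Krt19 is counted again among the mesothelial markers, and the other 5 tested epithelial markers had negative log2 fold changes. Of 8 endothelial markers 7 were tested and 1 was lower (79.3 to 100.6 against 97.5 to 120.7 CPM), and all 6 mesothelial markers were tested, 3 higher and 2 lower (141 to 184 against 175 to 225 CPM). The part of these shifts in the results below was not tested; in such cultures fewer cells of a type and less RNA per cell cannot be told apart.

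After Wt1 siRNA the cholesterol genes did not move as a group. Of the 29 members, Dhcr7, Insig1 and Abcg1 rose, Sqle, Hsd17b7 and Insig2 fell, and 23 did not pass an adjusted p of 0.05 (edgeR quasi-likelihood test, Benjamini-Hochberg adjustment over all tested genes). These shares, 10.3% higher and 10.3% lower, are near those of all tested genes, 9.05% higher and 10.3% lower. Among the 9080 tested genes with a mean of at least 10 CPM the shares were 12.3% higher and 13% lower. The members' median log2 fold change was -0.01, against 0.00 for all tested genes, with 13 positive and 16 negative values. The groups were fully separate in 9 members: 5 were lower in all 3 Wt1 siRNA libraries (background 18.3%), and 4 were higher (background 18.1%). The called genes lie apart in the genome (GRCm38, whole annotated gene, with reads counted per gene). Sqle (gene ID 20775) spans 59315092 to 59331193 of chromosome 15, plus strand, Hsd17b7 (gene ID 15490) spans 169949535 to 169969242 of chromosome 1, minus strand, and Dhcr7 (gene ID 13360) spans 143823167 to 143848410 of chromosome 7, plus strand. Insig1 (gene ID 231070) spans 28071412 to 28078662 of chromosome 5, plus strand, Insig2 (gene ID 72999) spans 121304353 to 121332662 of chromosome 1, minus strand, and Abcg1 (gene ID 11307) spans 31057694 to 31117984 of chromosome 17, plus strand. None of the 6 shares over 2.49% of its 50-base stretches with another gene. The 95% interval of the change lay within 2-fold either way for 28 of the 29 members, all but Abcg1, and within 1.5-fold for 18 of the 23 that did not pass.

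**Figure D1:**
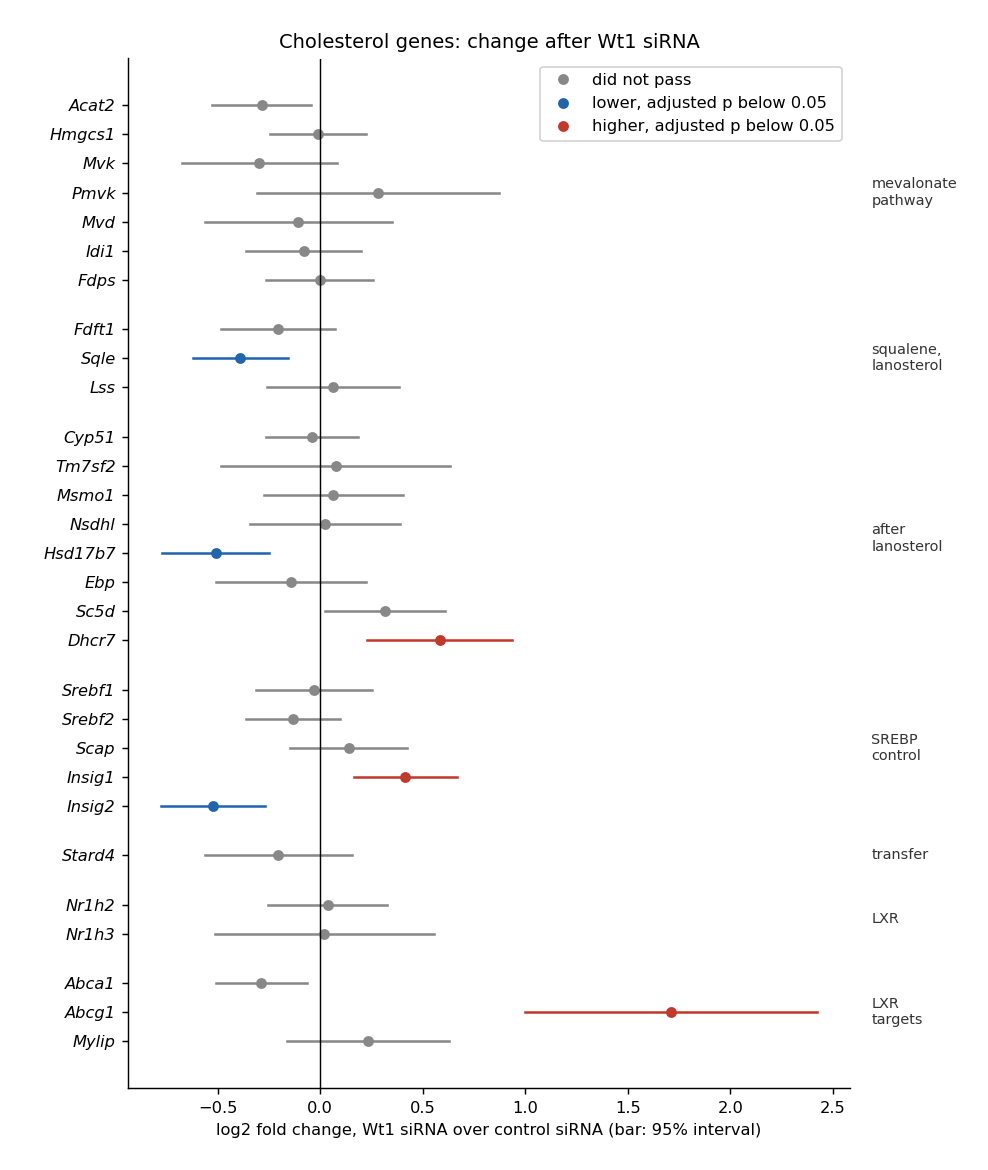
Log2 fold change of each of the 29 genes, Wt1 siRNA over control siRNA, with its 95% interval as a bar, grouped by role; colour marks the direction of genes past an adjusted p of 0.05. Most points lie close to 0, with Abcg1 at 1.71 and Insig2 at -0.52 as the ends of the range.

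The 7 enzymes that lead from acetyl-CoA to farnesyl diphosphate held 0 genes past the threshold in either direction (0 by edgeR, by DESeq2 and by limma-voom; 1 gene, Acat2, at an unadjusted p below 0.05), with a median log2 fold change of -0.08. Hmgcs1, the cytosolic HMG-CoA synthase whose promoter is printed above, had 180, 178 and 186 CPM after Wt1 siRNA and 199, 162 and 188 CPM after control siRNA. The groups overlapped, and the log2 fold change of -0.01 ± 0.11 had a 95% interval of -0.25 to 0.22; 13.6% of its 50-base stretches also lie in a gene on the opposite strand. Acat2, the cytosolic thiolase that opens the pathway, had 47.4, 44.8 and 47.3 CPM after Wt1 siRNA, against 53.5, 55.9 and 60.9 CPM after control siRNA. Every Wt1 siRNA library was below every control, but the log2 fold change of -0.29 ± 0.11 did not pass (adjusted p = 0.0926; 0.0414 with library size scaling), and 45.9% of the 50-base stretches of its transcripts also occur in other genes, mostly Acat3, so that its reads may be shared.

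The kinases and the decarboxylase that turn mevalonate into isopentenyl diphosphate did not pass either. Mvk, mevalonate kinase, had 10, 12.8 and 11 CPM after Wt1 siRNA and 12.5, 15.1 and 14.1 CPM after control siRNA (log2 fold change -0.30 ± 0.17, adjusted p = 0.265). Pmvk, phosphomevalonate kinase, had 5.76, 9.68 and 5.41 CPM after Wt1 siRNA and 5.31, 5.0 and 6.84 CPM after control siRNA, with Wt1 siRNA library 5 above the rest. Mvd, the diphosphomevalonate decarboxylase, had 11.4, 11.7 and 9.70 CPM after Wt1 siRNA and 10.7, 15.3 and 9.36 CPM after control siRNA. In these 3 genes the groups overlapped. Idi1, the isomerase that makes dimethylallyl diphosphate, had 52.6, 44.5 and 51.4 CPM after Wt1 siRNA and 60.3, 48.4 and 48.5 CPM after control siRNA. Fdps, farnesyl diphosphate synthase, had 89.1, 108 and 82.1 CPM after Wt1 siRNA and 91.5, 98.4 and 90.1 CPM after control siRNA. Their log2 fold changes were -0.08 ± 0.13 and -0.00 ± 0.12; other annotated genes hold 30.5% of the 50-base stretches of Idi1 and 86.4% of those of Fdps, so both values are uncertain.

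Of the 3 enzymes from farnesyl diphosphate to lanosterol 1, Sqle, fell and 2 did not pass, with a median log2 fold change of -0.21. Sqle, the squalene epoxidase, which adds the oxygen that later becomes the hydroxyl group of cholesterol and is a slow step of the pathway, had 50.4, 50.5 and 55.1 CPM after Wt1 siRNA, against 69.1, 65.6 and 69.9 CPM after control siRNA. All 3 Wt1 siRNA libraries lay below all 3 controls, and it fell 1.31-fold (log2 fold change -0.39 ± 0.11, adjusted p = 0.0235). The call was lost without Wt1 siRNA library 4 (adjusted p = 0.121), Wt1 siRNA library 5 (0.0865), control library 1 (0.0629) or control library 3 (0.0717), with log2 fold changes of -0.43 to -0.37 over all 6 omissions. Fdft1, squalene synthase, which makes its substrate, had 56.6, 55.1 and 54.3 CPM after Wt1 siRNA and 74.2, 63.3 and 54.0 CPM after control siRNA. The controls of Fdft1 spread down to the level of the Wt1 siRNA libraries, and it did not pass (-0.21 ± 0.13, adjusted p = 0.300); 30.7% of its 50-base stretches occur in other genes, most of them in Ctsb on the opposite strand. Lss, lanosterol synthase, which uses the product of squalene epoxidase, had 23.1, 21.5 and 19.1 CPM after Wt1 siRNA and 21.5, 17.8 and 21.8 CPM after control siRNA (0.06 ± 0.15, adjusted p = 0.826).

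Of the 8 enzymes after lanosterol, Dhcr7 rose, Hsd17b7 fell and 6 did not pass, with a median log2 fold change of 0.04. Hsd17b7, the keto-reductase that works in the removal of the methyl groups of lanosterol, had 42.2, 42.0 and 38.4 CPM after Wt1 siRNA and 58.2, 52.2 and 64.4 CPM after control siRNA. The groups did not overlap, and the gene was 1.42-fold lower (log2 fold change -0.51 ± 0.12, adjusted p = 0.0114). Hsd17b7 lost its call when Wt1 siRNA library 4 was left out (adjusted p = 0.0520) or control library 3 (0.0536). Dhcr7, the reductase that makes cholesterol from its direct precursor, had 21.8, 19.7 and 19.0 CPM after Wt1 siRNA and 15.9, 12.3 and 12.1 CPM after control siRNA. Its lowest Wt1 siRNA library stood above its highest control, and it rose 1.5-fold (0.58 ± 0.16, adjusted p = 0.0256). The call of Dhcr7 was lost with library size scaling (adjusted p = 0.0668) and without Wt1 siRNA library 4 (0.120), Wt1 siRNA library 5 (0.0584), control library 2 (0.0574) or control library 3 (0.0884), with log2 fold changes of 0.51 to 0.73 over the omissions.

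Sc5d, the desaturase that acts just before Dhcr7, had 101, 100.2 and 96.5 CPM after Wt1 siRNA and 93.4, 63.8 and 82.4 CPM after control siRNA. The groups did not overlap, but control library 2 was far below the other controls, and the log2 fold change of 0.31 ± 0.13 did not pass (adjusted p = 0.128); without control library 1 it did (0.0481). Cyp51, the demethylase that starts on lanosterol, had 103, 112 and 98.2 CPM after Wt1 siRNA and 109, 103 and 110 CPM after control siRNA. Msmo1, the methylsterol oxidase, had 88.8, 80.6 and 88.7 CPM after Wt1 siRNA and 100.1, 61.3 and 85.7 CPM after control siRNA. Nsdhl, the decarboxylating dehydrogenase that works with Msmo1, had 37.7, 30.3 and 33.1 CPM after Wt1 siRNA and 39.2, 24.9 and 35.4 CPM after control siRNA. In these 3 genes the groups overlapped, with log2 fold changes of -0.04 for Cyp51, 0.06 for Msmo1 and 0.02 for Nsdhl. Tm7sf2, a sterol reductase, had 10.6, 7.36 and 7.10 CPM after Wt1 siRNA and 10.2, 7.92 and 5.6 CPM after control siRNA. Ebp, the sterol isomerase, had 13.8, 15.4 and 13.2 CPM after Wt1 siRNA and 13.6, 18.2 and 15 CPM after control siRNA. Neither Tm7sf2 (0.07 ± 0.26) nor Ebp (-0.14 ± 0.17) passed, and their groups overlapped.

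Summed over the 18 enzymes, the level was 945, 945 and 916 CPM after Wt1 siRNA and 1037, 890 and 973 CPM after control siRNA. The means, 935 ± 16.9 and 967 ± 73.7 CPM (SD, n = 3 each), differed by less than the spread of the controls. Control library 2 was the lowest of the controls for 10 of the 18 enzymes, and for 39.7% of all tested genes.

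**Figure D2:**
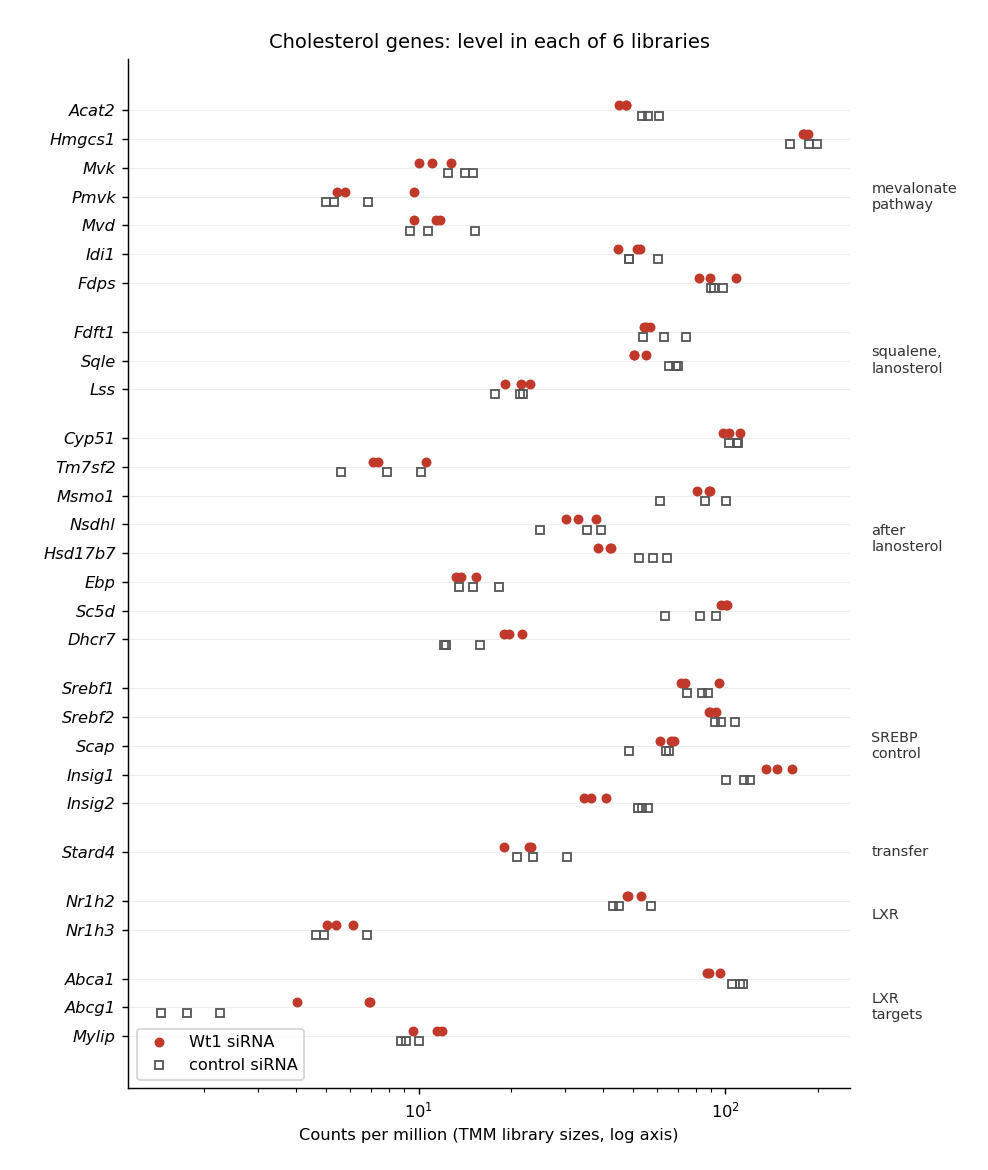
Counts per 1e6 counts (log axis) of the 29 genes in each library, Wt1 siRNA and control siRNA, in the order of their roles. For most genes the libraries of the groups mingle, and Abcg1 is the gene whose groups lie furthest apart.

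In the sterol-sensing machinery 1 gene of 5 rose and 1 fell, and these were the INSIG paralogs. Insig1, itself a target of SREBP, had 164, 147 and 135 CPM after Wt1 siRNA, against 115, 100.2 and 120 CPM after control siRNA. Insig2, whose product does the same retention of SCAP but whose transcript is not under the same SREBP control, had 34.6, 36.6 and 40.7 CPM after Wt1 siRNA, against 53.4, 51.7 and 55.7 CPM after control siRNA. In both genes the groups were separate, and they lay on opposite sides: Insig1 rose 1.33-fold (log2 fold change 0.41 ± 0.12, adjusted p = 0.0257) and Insig2 fell 1.44-fold (-0.52 ± 0.12, adjusted p = 0.00829). The call of Insig2 was lost only without Wt1 siRNA library 4 (adjusted p = 0.0657) among 13 alternatives. The call of Insig1 was lost with library size scaling (0.0782) and without Wt1 siRNA library 4 (0.151), Wt1 siRNA library 5 (0.0599), control library 1 (0.0510) or control library 2 (0.0600).

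The ratio of the INSIG counts within a library does not depend on how libraries are scaled; it was chosen after the values were seen and is given without a test. Insig1 over Insig2 was 4.75, 4.01 and 3.32 after Wt1 siRNA and 2.15, 1.94 and 2.15 after control siRNA. All 3 Wt1 siRNA libraries stood above all 3 controls, by 0.94 on the log2 scale on average (0.81 to 1.07 with a library left out). That separation was fixed by the values above, since the groups of both genes were separate in opposite directions, and is no further result. The SREBP genes themselves showed no such split. Srebf1, which encodes SREBP-1 and serves mostly fatty acid genes, had 73.8, 95.4 and 71.7 CPM after Wt1 siRNA and 74.9, 87.4 and 83.6 CPM after control siRNA. Srebf2, which encodes SREBP-2, the main driver of cholesterol synthesis, had 89.2, 93.4 and 88.1 CPM after Wt1 siRNA and 97.1, 107 and 92.4 CPM after control siRNA. Both overlapped, at log2 fold changes of -0.03 ± 0.13 and -0.13 ± 0.10. Their ratio, Srebf1 over Srebf2, was 0.828, 1.02 and 0.813 after Wt1 siRNA and 0.771, 0.813 and 0.905 after control siRNA, also overlapping. Scap, the SREBP escort, had 61.0, 66.7 and 68.1 CPM after Wt1 siRNA and 65.3, 48.6 and 63.9 CPM after control siRNA, and did not pass (0.14 ± 0.13, adjusted p = 0.519). Of its 50-base stretches 13.1% also occur in another gene, on the opposite strand.

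**Figure D3:**
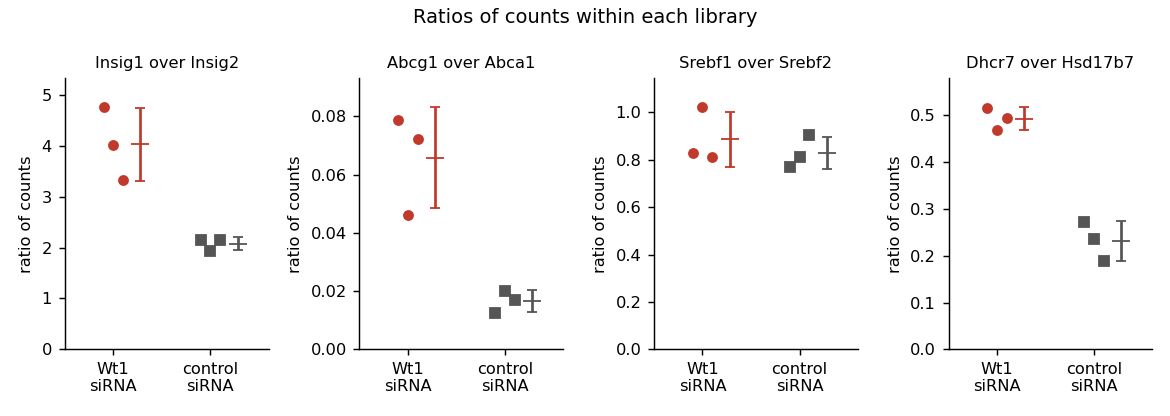
Ratios of the counts of pairs of genes within each library, with the mean and SD (n = 3) beside the points, Wt1 siRNA left of control siRNA. Insig1 over Insig2, Abcg1 over Abca1 and Dhcr7 over Hsd17b7 are separate between the groups, while Srebf1 over Srebf2 overlaps. In each separate ratio both genes were themselves separate, in opposite directions, which fixed that outcome.

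Stard4, a soluble carrier that moves sterol between membranes, had 22.9, 23.2 and 19.0 CPM after Wt1 siRNA and 21.0, 23.5 and 30.5 CPM after control siRNA. The groups overlapped (log2 fold change -0.21 ± 0.16, adjusted p = 0.435).

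Of the 2 liver X receptors and 3 of their targets, 1 gene rose, the exporter Abcg1, and 0 fell by edgeR (1, Abca1, fell by DESeq2 and had an unadjusted p below 0.05). Nr1h2, the widely expressed LXR-beta, had 48.1, 53.1 and 47.7 CPM after Wt1 siRNA and 42.9, 57.2 and 45.0 CPM after control siRNA (log2 fold change 0.04 ± 0.13, 95% interval -0.25 to 0.33). Nr1h3, LXR-alpha, had 5.39, 6.13 and 5.04 CPM after Wt1 siRNA and 4.63, 6.79 and 4.92 CPM after control siRNA (0.02 ± 0.25, 95% interval -0.52 to 0.55). In both receptors the groups overlapped.

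Abcg1, the transporter that hands cholesterol to high-density lipoprotein particles, had 6.95, 4.02 and 6.92 CPM after Wt1 siRNA, against 1.45, 2.25 and 1.77 CPM after control siRNA. In reads these were 187, 111 and 221 after Wt1 siRNA and 47, 64 and 47 after control siRNA. The groups were separate, with Wt1 siRNA library 5 the nearest to the controls. It rose 3.27-fold (log2 fold change 1.71 ± 0.33, adjusted p = 0.00359), the largest change among the 29 genes, with a 95% interval of 2.0 to 5.36-fold. It was also the member whose call was kept in all 13 alternatives, with log2 fold changes of 1.57 to 1.93 when a library was left out. Abca1, the transporter that loads lipid-poor apolipoprotein A-I, had 88.1, 87.2 and 95.7 CPM after Wt1 siRNA and 114, 112 and 105 CPM after control siRNA. Here too the groups were separate, in the other direction, but the log2 fold change of -0.29 ± 0.10 missed the threshold (adjusted p = 0.0678); it passed with library size scaling (0.0342) and with DESeq2 (0.0480). Abcg1 over Abca1 was 0.0789, 0.0461 and 0.0723 after Wt1 siRNA, against 0.0127, 0.0202 and 0.0168 after control siRNA, so that every Wt1 siRNA library had the higher ratio. This ratio, like that of the INSIG genes, was chosen after its values were seen. Its separation was likewise fixed by the separate, opposite groups of both genes.

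Abcg1 is abundant in macrophages, so the macrophage markers stand beside it. Their summed level was 37.2, 34.5 and 38.9 CPM after Wt1 siRNA and 42.0, 43.0 and 51.7 CPM after control siRNA, lower in all 3 Wt1 siRNA libraries. That difference came from Cd14: without it the sums were 31.3, 25.6 and 28.4 CPM after Wt1 siRNA and 26.4, 23.3 and 31.1 CPM after control siRNA, and the groups overlapped. Cd14 was left out after its values were seen. Most of the remaining sum was Lyz2, with a mean of 21.7 of 28.5 CPM after Wt1 siRNA and 19.7 of 26.9 CPM after control siRNA. Of the other tested markers Lyz2 had a log2 fold change of 0.14 and Mrc1 of 0.66. Cd68 had -0.80, Ptprc -0.78 and Csf1r -0.06. None of them passed (edgeR adjusted p = 0.369 to 0.947). Among the markers too low to test, Adgre1 had 0, 10 and 5 reads after Wt1 siRNA and 0 in each control. Itgam had 7, 13 and 6 reads after Wt1 siRNA and 1, 0 and 5 after control siRNA, and Marco 8, 4 and 8 against 6, 0 and 0. Tyrobp went the other way, with 0, 4 and 0 reads after Wt1 siRNA and 10, 11 and 10 after control siRNA. Itgax had 8, 0 and 3 reads after Wt1 siRNA and 6, 22 and 6 after control siRNA, and Fcgr1 12, 9 and 0 against 18, 0 and 0. The part of macrophage RNA in the level of Abcg1 was not tested. Mylip, a ubiquitin ligase induced by LXR that marks lipoprotein receptors for degradation, had 9.56, 11.5 and 11.9 CPM after Wt1 siRNA and 10.1, 8.80 and 9.13 CPM after control siRNA. The groups overlapped, and Mylip did not pass (0.23 ± 0.18, adjusted p = 0.420).

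**Figure D4:**
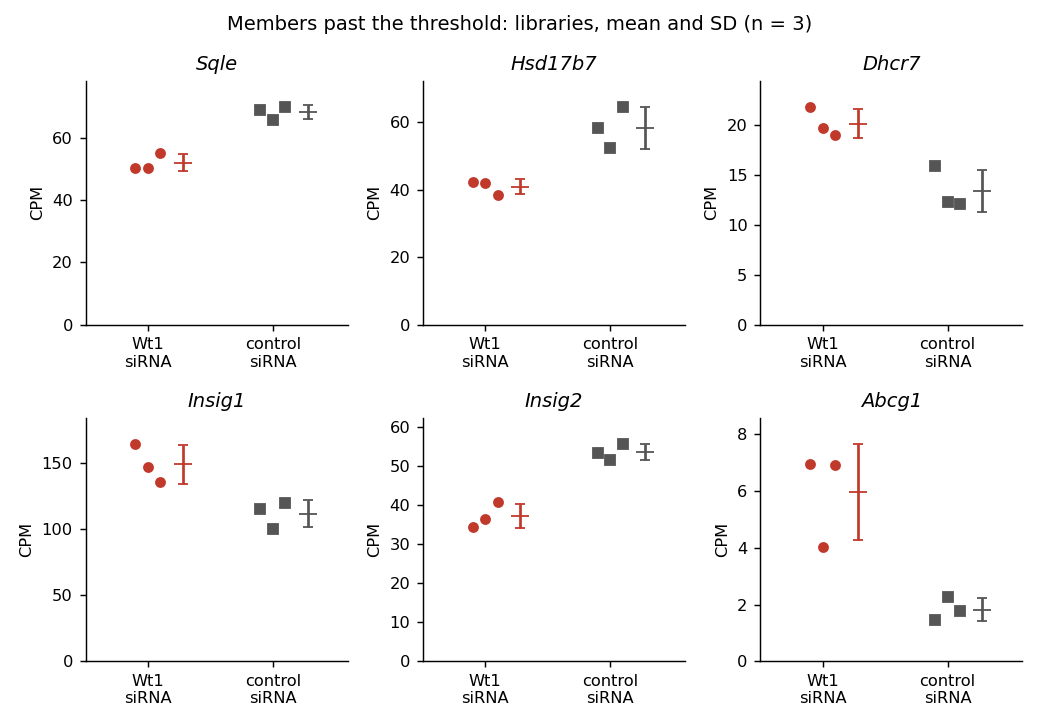
Counts per 1e6 counts of the 6 genes past an adjusted p of 0.05, one point per library with the mean and SD (n = 3) beside the points, Wt1 siRNA left of control siRNA. In each gene the groups do not overlap; Sqle, Hsd17b7 and Insig2 are lower and Dhcr7, Insig1 and Abcg1 higher after Wt1 siRNA.

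Levels of different genes were compared per length, as reads per kilobase of exon and per 1e6 counts (RPKM, group means), with no test. Fdps was the highest at 64.1 RPKM after Wt1 siRNA and 64.2 RPKM after control siRNA, a value that may include reads of its copies. Insig1 came next after Wt1 siRNA, at 55.2 RPKM and 41.4 RPKM after control siRNA, followed by Hmgcs1 at 52.1 and 52.5 RPKM and Msmo1 at 42.1 and 40.3 RPKM. In the controls Hmgcs1 stood above Insig1. Insig2 had 12.6 RPKM after Wt1 siRNA and 18.2 RPKM after control siRNA. LXR-beta, at 24.7 and 24.1 RPKM, was far above LXR-alpha, at 2.57 and 2.54 RPKM. Abcg1 was the lowest of the 29 in both groups, at 0.873 RPKM after Wt1 siRNA and 0.267 RPKM after control siRNA, while Abca1 had 8.81 and 10.7 RPKM.

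Other genes of lipid metabolism were counted for comparison, in 5 lists. Of all tested genes 9.05% were called higher and 10.3% lower (12.3% and 13% of those with a mean of at least 10 CPM). In the order of the lists below, 16.7%, 30.8%, 7.14%, 30% and 15.4% of their tested genes were higher. The shares lower were 0%, 15.4%, 7.14%, 5% and 7.69%. Of 18 genes of fatty acid synthesis and desaturation, the other arm of the SREBP program, 3 rose and 0 fell by edgeR (5 at an unadjusted p below 0.05 in either direction), with a median log2 fold change of 0.07. Acly, ATP citrate lyase, which makes the cytosolic acetyl-CoA that both arms use, had 269, 244 and 261 CPM after Wt1 siRNA and 186, 181 and 167 CPM after control siRNA (0.54 ± 0.10, adjusted p = 0.00328). Scd2, a stearoyl-CoA desaturase, had 935, 855 and 921 CPM after Wt1 siRNA and 694, 577 and 644 CPM after control siRNA (0.50 ± 0.10, adjusted p = 0.00565). Both genes were separate between the groups and kept their call in all 13 alternatives. Elovl1, a fatty acid elongase, rose by 0.39 ± 0.11 on the log2 scale (adjusted p = 0.0265), a call lost with library size scaling (0.0648) and without Wt1 siRNA libraries 4 (0.0928) and 5 (0.120) and control libraries 1 (0.0765) and 3 (0.0777), each left out alone.

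Of 13 genes of SREBP cleavage and sterol-linked protein degradation 4 rose and 2 fell, with a median of 0.11; the higher count was 1 with library size scaling or without control library 3, 2 without control library 1, and 0 when either Wt1 siRNA library 4 or 5 was omitted. Rnf145, a sterol-responsive ubiquitin ligase, had 85.0, 92.2 and 93.5 CPM after Wt1 siRNA and 126, 134 and 149 CPM after control siRNA (-0.60 ± 0.11, adjusted p = 0.00260). Faf2, which recruits the p97 ATPase to such ligases, fell by 0.49 ± 0.10 (adjusted p = 0.00570), and Ube2g2, a ubiquitin-conjugating enzyme that works with them, rose by 0.51 ± 0.13 on the log2 scale (adjusted p = 0.0160; 0.0696 without Wt1 siRNA library 4 and 0.0716 without library 5). Faf2 and Rnf145 held in the 13 alternatives. Of 14 genes of the non-sterol branches, which make prenyl groups, coenzyme Q and dolichol, 1 rose and 1 fell (median -0.06). These were Zmpste24, the protease that trims farnesylated prelamin A (0.44 ± 0.12, adjusted p = 0.0246), and Pggt1b, a subunit of the enzyme that attaches geranylgeranyl groups to proteins (-0.52 ± 0.13, adjusted p = 0.0157). Zmpste24 lost its call with library size scaling (0.0810) and when Wt1 siRNA library 4 (0.109) or 6 (0.0552) was left out, and Pggt1b when Wt1 siRNA library 4 (0.0752) or 5 (0.0543) was left out.

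Of 20 genes of sterol uptake, transport and esterification 6 rose and 1 fell, with a median log2 fold change of 0.24. Nceh1, a hydrolase that frees cholesterol from its esters, had 47.4, 42.8 and 37.9 CPM after Wt1 siRNA and 23.6, 21.7 and 20.4 CPM after control siRNA (0.96 ± 0.13, adjusted p = 5.02e-04). Stard5, a sterol-binding relative of Stard4, had 49.9, 49.8 and 39.7 CPM after Wt1 siRNA and 25.7, 29.1 and 21.1 CPM after control siRNA (0.87 ± 0.15, adjusted p = 0.00192). Cav1, caveolin 1, the cholesterol-binding coat protein of caveolae, had 383, 497 and 300.1 CPM after Wt1 siRNA and 196, 247 and 166 CPM after control siRNA (0.96 ± 0.18, adjusted p = 0.00351). In all 3 genes the groups were separate, and all 3 calls held in the 13 alternatives.

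Of 14 oxysterol enzymes and other LXR targets 13 were tested, 2 rose and 1 fell (median -0.03), and the 3 called genes had changes of over 2-fold. Ch25h, which makes an oxysterol that holds back SREBP and can activate LXR, had 10.9, 6.27 and 13.0 CPM after Wt1 siRNA and 31.3, 31.6 and 24.2 CPM after control siRNA (-1.53 ± 0.23, adjusted p = 9.44e-04). Cyp27a1, a mitochondrial oxysterol-forming enzyme, had 4.72, 4.10 and 4.69 CPM after Wt1 siRNA and 2.07, 1.06 and 0.752 CPM after control siRNA (1.79 ± 0.40, adjusted p = 0.00914). Smpdl3a, a phosphodiesterase induced by LXR in human macrophages, had 27.5, 15.4 and 22.0 CPM after Wt1 siRNA and 11.6, 9.22 and 7.14 CPM after control siRNA (1.21 ± 0.23, adjusted p = 0.00386). The groups of each were separate, and the 3 calls held in the 13 alternatives.

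**Figure D5:**
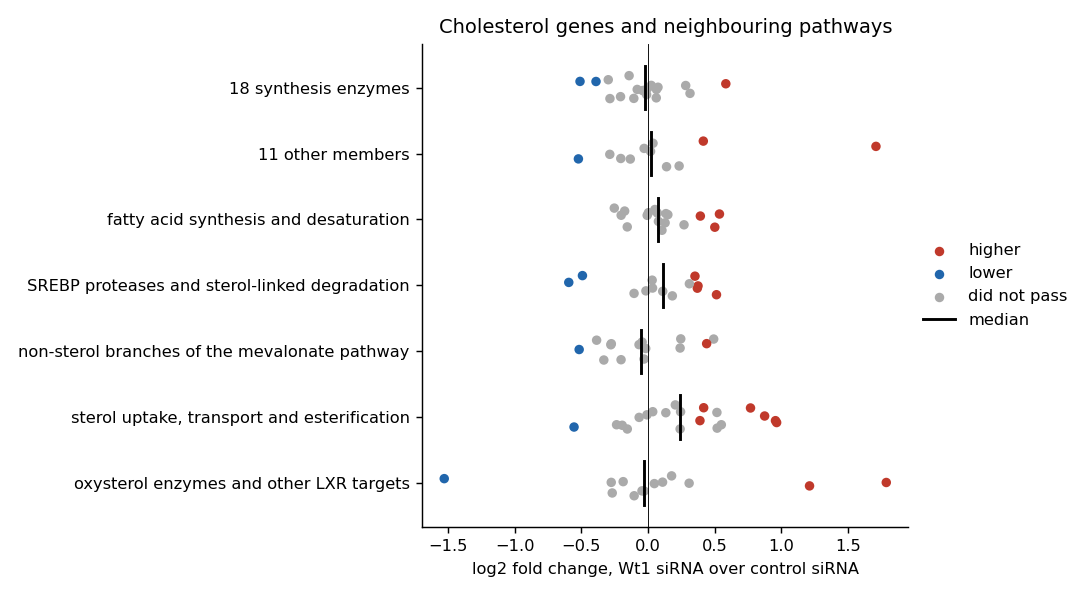
Log2 fold changes, Wt1 siRNA over control siRNA, of every tested gene in the sets of members and in the 5 neighbouring lists, one point per gene. Sterol uptake, transport and esterification has the highest median of the 5 lists, 0.24, and the oxysterol list spans -1.53 to 1.79.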

How the data were processed

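The authors deposited raw counts of reads per gene, with no normalization, as whole numbers for 6 libraries and Entrez gene IDs. Tools named in the submitters' processing notes, without roles, are TopHat, DESeq, bcl2fastq and CASAVA 1.8, with the build mm10 (GRCm38). For the counting tool, the annotation and the strand setting, nothing is given in the sources used here, so reads of overlapping or copied genes may be shared. RNA was column-purified and libraries followed standard Illumina protocols, per the labels' protocols. Groups came from the sample titles.

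From these counts CPM (TMM scaling), RPKM (exon union of GENCODE M21) and tests were computed with edgeR 4.0.16 in R 4.3.3: filterByExpr (14190 genes kept), quasi-likelihood test on the siRNA group, Benjamini-Hochberg adjustment, threshold 0.05. TMM factors were 0.940 to 1.07; 3 counts are worth 0.0935 to 0.115 CPM. The fitting procedure was tested on simulated data. The 13 alternatives were 7 other settings (library size scaling, DESeq2 size factors, DESeq2 1.42.0, limma-voom with limma 3.58.1, no filter, a mean count of at least 50, robust shrinkage) and the omission of each of the 6 libraries. Symbols and promoters are from RefSeq (GRCm38.p6). The share of 50-base stretches found in other genes was computed on GENCODE M21 transcripts.

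The named genes are all 29 members, Wt1 and, per neighbouring list, up to 3 called genes with the smallest p. The members and lists were chosen with earlier results of these data known. Pairs of libraries had a correlation across genes (log2 CPM) of 0.968 to 0.977 inside a group and 0.949 to 0.966 across groups. Inside a group their counts differed by far more than sampling noise (chi-square over degrees of freedom 18.9 to 70.9). No library of a group is therefore a mere repeat sequencing of another. These values cannot tell separate cultures from separate preparations of the same culture.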

Additional observations from a re-analysis of the deposited data

How the results depend on the processing

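No paired analysis was possible because the replicate numbers of the groups, 4 to 6 and 1 to 3, are not shared. Wt1 kept its direction and call in all 13 alternatives (log2 fold change -2.65 to -2.38 with a library left out). Of the 6 called members, 1, Abcg1, kept its call throughout; 5 lost theirs in at least 1 alternative and 0 changed sign. With library size scaling, which moves the median of all genes from 0.00 to -0.08, 1 member was higher and 5 were lower, 0 enzymes were higher, and 855 genes were higher in all. With DESeq2 4 members were lower. Leaving out a library gave 1 to 3 higher members and 0 to 3 lower ones, 0 to 2 higher and 0 to 2 lower enzymes, and 578 to 1253 higher and 785 to 1406 lower genes in all; 1 member was higher without Wt1 siRNA library 4, Wt1 siRNA library 5 or control library 2, 0 were lower without Wt1 siRNA library 4 and 1 without control library 3. With fewer libraries the tests have less power; otherwise the cause was not tested.

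Genes near 0 changed sign without a call. With library size scaling the log2 fold changes were -0.027 for Lss, -0.016 for Tm7sf2, -0.027 for Msmo1, -0.065 for Nsdhl, -0.046 for Nr1h2 and -0.065 for Nr1h3. With a library left out they ranged from -0.089 to 0.057 for Hmgcs1, -0.030 to 0.44 for Pmvk, -0.25 to 0.12 for Mvd, -0.13 to 0.035 for Idi1, -0.12 to 0.080 for Fdps, -0.025 to 0.14 for Lss, -0.092 to 0.0028 for Cyp51, -0.13 to 0.30 for Tm7sf2, -0.11 to 0.23 for Msmo1, -0.14 to 0.17 for Nsdhl, -0.17 to 0.047 for Srebf1, -0.041 to 0.18 for Nr1h2 and -0.086 to 0.21 for Nr1h3. The log2 ratio of Srebf1 to Srebf2, an alternative added after seeing the data, differed by 0.09 between the groups and by -0.013 to 0.16 with a library left out. The sterol regulatory element shortened to TCACNCCA was found in 3 members, Hmgcs1, Msmo1 and Srebf2, and in 4.43% of the tested genes. Depth limits Abcg1 (47 to 64 reads in controls), Pmvk and Nr1h3, and 3 libraries a group limit all intervals.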

Other observations

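Several other called genes of the neighbouring lists were picked here after their values were seen. Soat1, which esterifies cholesterol in the endoplasmic reticulum, had 76.3, 82.0 and 85.8 CPM after Wt1 siRNA and 111, 111 and 137 CPM after control siRNA (log2 fold change -0.56 ± 0.12, edgeR adjusted p = 0.00610, and 0.0540 without Wt1 siRNA library 4). Lipa, the lysosomal acid lipase that frees cholesterol from endocytosed esters, had 107, 96.2 and 105 CPM after Wt1 siRNA and 85.7, 72.6 and 72.2 CPM after control siRNA (0.42 ± 0.11, adjusted p = 0.0214, but 0.0852 with library size scaling and 0.110, 0.0539 and 0.0784 when Wt1 siRNA library 4, Wt1 siRNA library 6 or control library 3 was left out). Osbpl2, an oxysterol-binding lipid transfer protein, rose (log2 fold change 0.77 ± 0.16, adjusted p = 0.00604), a call kept in the 13 alternatives. Vldlr, a lipoprotein receptor, rose as well (0.39 ± 0.11, adjusted p = 0.0315), a call lost with library size scaling (0.0740) and when Wt1 siRNA library 4 or 5 or control library 1 or 3 was left out (0.0815 to 0.165).

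Among the genes that handle SREBP and sterol-regulated degradation, Mbtps2, the protease that makes the second cut in SREBP, rose by 0.35 ± 0.11 (adjusted p = 0.0488). The ubiquitin ligase Rnf139 rose (0.37 ± 0.11, adjusted p = 0.0291), while the ligase Rnf145 fell. Both rises were lost with library size scaling (adjusted p = 0.114 for Mbtps2 and 0.0865 for Rnf139), and leaving out Wt1 siRNA library 4 gave 0.148 for Mbtps2 and 0.134 for Rnf139, leaving out library 5 0.170 and 0.0931. Without control library 3 they were at 0.0892 and 0.0627, and without control library 1 at 0.139 and 0.0705. Mbtps2 also lost its call without Wt1 siRNA library 6 (0.0565) and with no filter (0.0540). Dhcr7 over Hsd17b7, a ratio of a pair of pathway enzymes chosen after seeing the values, was 0.516, 0.469 and 0.494 after Wt1 siRNA and 0.273, 0.236 and 0.188 after control siRNA. Its separation was fixed by the groups of both genes, which were separate in opposite directions.

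The comparison of protein sequences between paralogs, planned for the INSIG, SREBP, LXR and ABC pairs, was not run; protein sequences were not used here.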
